A study of Oryza sativa with 6 samples.

Results

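This account covers 48 loci, of 46732 rows in the deposited expression table, that were at or near 0 in one rice line and expressed in its near-isogenic partner. They were chosen by their values in both lines: a mean under 0.1 RPKM over the 3 NIL-qigl1HD385 libraries and at least 0.5 RPKM in each of the 3 NIL-qIGL1NIP libraries. RPKM gives the reads of a locus relative to its length and to the total of its library. Loci from LOC_Os03g38970 to LOC_Os03g40270 on chromosome 3 and from LOC_Os05g46480 to LOC_Os05g47850 on chromosome 5 were left out by the rule. A further 8 loci in those segments met the same limits, 4 in each.

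RNA of young rice (Oryza sativa) panicles, 8 to 10 cm long, was sequenced in 3 libraries each of NIL-qigl1HD385 and NIL-qIGL1NIP. The labels give no treatment and call the genotype of both lines wild type. Their names refer to an HD385 and a NIP version of qIGL1, a grain length locus, and the labels give neither its position nor the other segments in which the lines may differ. Nothing says that the 3 libraries of a line are separate plants; p-values therefore rest on a spread between libraries that may be technical. Library totals recovered from the values were 43536754 to 52466060 reads, and NIL-qigl1HD385 replicate 2 lay farthest from the other libraries on the first principal component.

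Near-isogenic lines are made by crossing a chosen locus from a donor into a recipient and backcrossing, so that most of the genome is shared while the chosen segment, and any other donor segment that was carried along, differs. Rice varieties are known to differ in gene content as well as in sequence: genes may be whole in one variety and deleted, rearranged or strongly diverged in another. Reads are assigned by their match to a reference, so that a value of 0 does not by itself say that no transcript is made. Identifiers of the form LOC_Os carry the number of the chromosome and, after it, a number that rises with position; the table also holds models named ChrSy or ChrUn that have no chromosome number. Gene names are not paired with them in the deposited table, and 0 of them matched RefSeq's genes of assembly ASM3414082v1. No role is therefore given for any locus, the panicle was not checked against marker genes, and no base coordinates or sequences are given.

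The 48 loci together held 80, 87 and 60 reads in NIL-qigl1HD385 replicates 1, 2 and 3. In NIL-qIGL1NIP replicates 1, 2 and 3 they held 42754, 35294 and 32546 reads. Scaled to depth, the reads in NIL-qigl1HD385 came to 0.210% of those in NIL-qIGL1NIP. Summed RPKM was 1.19 ± 0.353 in NIL-qigl1HD385 and 526 ± 37.8 in NIL-qIGL1NIP (SD, n = 3). The loci were chosen for this difference, so it carries no test. The rule also keeps the values of the lines from overlapping; among all loci tested below, 10.3% had their 3 NIL-qigl1HD385 values under the 3 of NIL-qIGL1NIP. In a bulk sample, fewer cells of a type and less RNA per cell cannot be told apart.

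**Figure D1:**
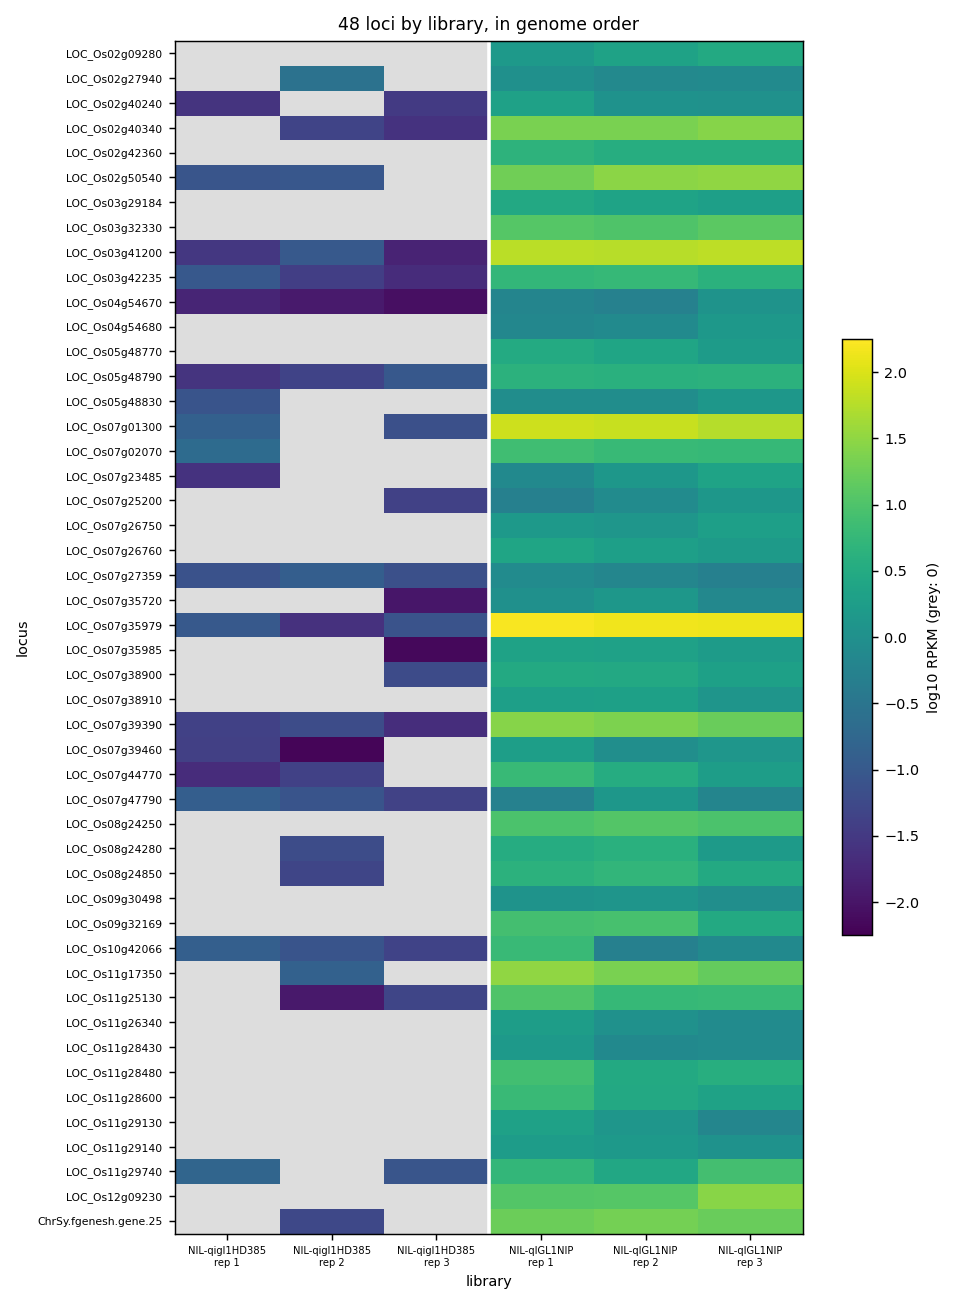
Level of the 48 loci (rows, in genome order) in each of the 6 libraries (columns), as log10 RPKM; grey marks a value of 0. The 3 left columns are grey or dark, and the 3 right columns range up to the 160 RPKM of LOC_Os07g35979.

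Silent here means under 0.1 RPKM, and many of the loci kept some reads. In NIL-qigl1HD385, 19 of the 48 loci had 0 reads in all 3 libraries, 8 had 1 to 3 reads in the sum of the libraries, and 21 had more, with a maximum of 28. Depth limits what 0 reads means: 3 reads over the 3 libraries would be 0.00624 RPKM at the longest of the 19 gene models and 0.137 RPKM at the shortest. Against that level, the 19 loci were at least 21.0-fold to at least 1010-fold higher in NIL-qIGL1NIP, with a median bound of 51.2-fold. For the other 29, the depth-scaled read ratio ranged from 7.49 to 2197, with a median of 143.

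Expression in NIL-qIGL1NIP was mostly low. The means of the 48 loci ran from 0.667 to 147 RPKM with a median of 2.59 RPKM, where the 23087 loci with a mean of at least 0.5 RPKM in that line had a median of 6.44 RPKM. Of the 48, 14 (29.2%) lay above that median. There were 6 loci under 1 RPKM, 13 from 1 to 2, 13 from 2 to 5, 6 from 5 to 10, 7 from 10 to 50 and 3 above 50 RPKM. A lower limit of 0.5 RPKM in each library is part of the rule, so the lower end of this range is set by it.

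The highest locus of the set was LOC_Os07g35979 on chromosome 7. It had 160, 142 and 137 RPKM in NIL-qIGL1NIP replicates 1, 2 and 3, and 0.10, 0.0244 and 0.0785 RPKM in NIL-qigl1HD385. In reads this was 35892 against 16, a depth-scaled ratio of 2197 (exact 95% interval 1353 to 3844, counting error only, each read taken as independent). Its level in NIL-qIGL1NIP lay above 97.7% of the loci expressed there.

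LOC_Os07g01300, near the start of chromosome 7 in identifier order, was second. Its NIL-qIGL1NIP values were 80.0, 74.5 and 56.8 RPKM, and its NIL-qigl1HD385 values 0.137, 0 and 0.0714 RPKM. The reads were 6352 against 6 (ratio 1037, interval 476 to 2827). LOC_Os03g41200 on chromosome 3 varied least among the high loci, with 61.6, 57.8 and 62.4 RPKM in NIL-qIGL1NIP against 0.0304, 0.104 and 0.0159 RPKM, or 24287 reads against 20 (ratio 1189, interval 770 to 1948).

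The next 5 loci had NIL-qIGL1NIP means of 18.1 to 26.8 RPKM. LOC_Os02g50540 on chromosome 2 had 18.6, 29.5 and 32.4 RPKM in NIL-qIGL1NIP and 0.0858, 0.0954 and 0 RPKM in NIL-qigl1HD385. LOC_Os02g40340, also on chromosome 2, had 22.4, 21.8 and 27.1 RPKM against 0, 0.0474 and 0.0255 RPKM. LOC_Os11g17350 on chromosome 11 had 31.7, 21.9 and 15.2 RPKM against 0, 0.138 and 0 RPKM, with its 2 reads, on a gene model of 300 bases, all in replicate 2. In each of these loci the lowest NIL-qIGL1NIP library stood far above the highest NIL-qigl1HD385 library. LOC_Os07g39390 had 27.6, 23.1 and 16.6 RPKM against 0.0420, 0.0614 and 0.0220 RPKM. The unplaced model ChrSy.fgenesh.gene.25 had 17.3, 20.3 and 16.7 RPKM against 0, 0.0535 and 0 RPKM. Of these 8 highest loci, each had at least 2 reads in NIL-qigl1HD385.

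The highest locus with 0 reads in NIL-qigl1HD385 was LOC_Os12g09230 on chromosome 12, with 11, 11.7 and 28.7 RPKM in NIL-qIGL1NIP replicates 1, 2 and 3. Its bound was at least 562-fold. LOC_Os03g32330 followed with 11.5, 10.2 and 12.8 RPKM and, as its gene model is longer, had the largest bound of the set, at least 1010-fold. Of the 10 loci with a mean of at least 10 RPKM, 2 (20%) had 0 reads in NIL-qigl1HD385. Of the 38 below 10 RPKM, 17 (44.7%) did. Across the 48 loci, summed reads in the lines correlated with a Spearman rho of 0.46; the points share 6 libraries and a gene length, so this is a description. The 19 loci with 0 reads had shorter recovered gene models, with a median of 555 bases against 1746 bases for the 29 others. A shorter model collects fewer reads at the same RPKM. A recovered length is the smallest that gives whole reads, and a value of 0 does not help to fix it. Lengths of the 19 may thus come out too short more often, which was not tested.

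**Figure D2:**
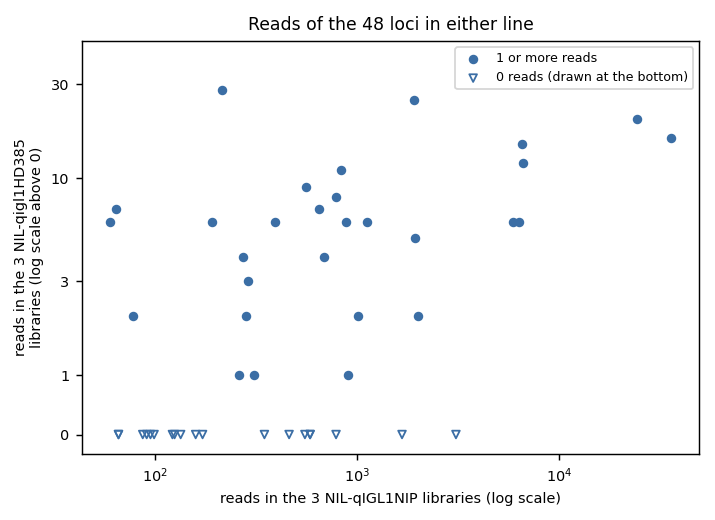
Each point is 1 of the 48 loci, with its reads summed over the 3 NIL-qIGL1NIP libraries (x, log scale) and over the 3 NIL-qigl1HD385 libraries (y, log scale above 0; triangles mark 0 reads). The locus with most reads in NIL-qIGL1NIP (35892) kept 16 in NIL-qigl1HD385, while the maximum of 28 belonged to a locus with 214.

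Gene models of the set were short by their recovered lengths. These ran from 156 to 5175 bases with a median of 770 bases. The loci expressed in NIL-qIGL1NIP had a median of 1677 bases. Among the 48, 12 (25%) were under 500 bases, against 6.89% of the expressed loci. The difference was also seen at matched levels: the 26 loci of the set with a mean of 1 to 5 RPKM in NIL-qIGL1NIP had a median of 688 bases and 34.6% under 500 bases, and the 7476 loci of that range with at least 0.5 RPKM in each library had 1545 bases and 8.84%. Matching on level does not match the read counts that fix a length, as the set has 0 or few reads in NIL-qigl1HD385. The smallest length that gives whole reads is taken. Part of the difference may therefore come from the recovery, which was not tested. Locus numbers also differed. Most identifiers carry a multiple of 10, and 9 of the 47 placed loci (19.1%) do not, against 7.81% of the loci expressed in NIL-qIGL1NIP. No test was made of these features.

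The loci lay on 10 of the 12 chromosomes, with 0 on chromosomes 1 and 6. Chromosome 7 held 16, which is 0.915% of its 1749 loci expressed in NIL-qIGL1NIP, and chromosome 11 held 9, or 0.695% of 1295. The share over all 23087 loci expressed in NIL-qIGL1NIP was 0.208%. The other chromosomes held 6 (chromosome 2), 4 (chromosome 3), 3 each (chromosomes 5 and 8), 2 each (chromosomes 4 and 9) and 1 each (chromosomes 10 and 12), and 1 locus was unplaced. The rule removed segments of chromosomes 3 and 5, so the counts there are lower than the limits alone would give.

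**Figure D3:**
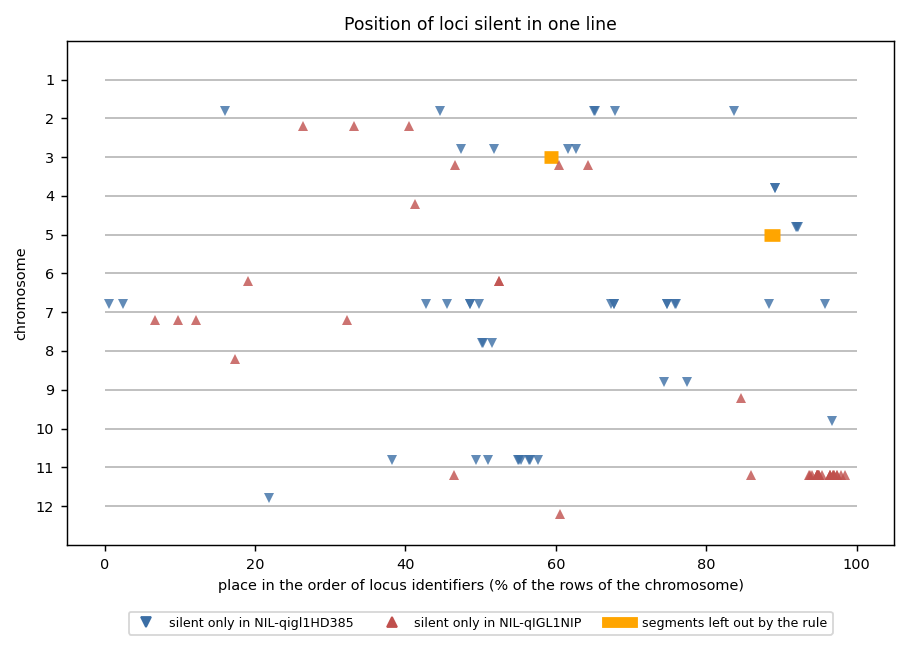
Place of each silent locus along the identifier order of its chromosome, in percent of the rows of that chromosome. Blue triangles mark loci silent only in NIL-qigl1HD385, of which 16 lie on chromosome 7, and red triangles the reverse set, of which 27 lie on chromosome 11; orange bars mark the segments left out.

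In genome order, the set began on chromosome 2 with LOC_Os02g09280, LOC_Os02g27940, LOC_Os02g40240, LOC_Os02g40340, LOC_Os02g42360 and LOC_Os02g50540, whose NIL-qIGL1NIP means were 2.26, 0.853, 1.43, 23.8, 3.86 and 26.8 RPKM. On chromosome 3, LOC_Os03g29184, LOC_Os03g32330, LOC_Os03g41200 and LOC_Os03g42235 had means of 2.39, 11.5, 60.6 and 5.09 RPKM. LOC_Os04g54670 and LOC_Os04g54680 on chromosome 4 are adjacent rows, with means of 0.770 and 0.961 RPKM. Both were highest in NIL-qIGL1NIP replicate 3, at 1.14 and 1.41 RPKM. LOC_Os05g48770, LOC_Os05g48790 and LOC_Os05g48830 on chromosome 5 had means of 2.42, 4.23 and 1.06 RPKM and come after the left-out segment.

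The 16 loci of chromosome 7 were spread from locus number 1300 to 47790. LOC_Os07g01300, LOC_Os07g02070, LOC_Os07g23485 and LOC_Os07g25200 had NIL-qIGL1NIP means of 70.4, 6.48, 1.48 and 0.899 RPKM. LOC_Os07g26750, LOC_Os07g26760 and LOC_Os07g27359 had 1.58, 2.01 and 0.667 RPKM. LOC_Os07g35720, LOC_Os07g35979 and LOC_Os07g35985 had 1.03, 147 and 1.99 RPKM, so that the highest locus of the set sat next to one of the lower ones. LOC_Os07g38900, LOC_Os07g38910, LOC_Os07g39390 and LOC_Os07g39460 had 2.67, 1.73, 22.4 and 1.39 RPKM, and LOC_Os07g44770 and LOC_Os07g47790 had 3.77 and 0.838 RPKM.

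Of the later chromosomes, chromosome 8 held LOC_Os08g24250, LOC_Os08g24280 and LOC_Os08g24850, with means of 9.93, 3.02 and 4.21 RPKM. LOC_Os09g30498 and LOC_Os09g32169 on chromosome 9 had 1.12 and 6.55 RPKM, and LOC_Os10g42066 on chromosome 10 had 2.51 RPKM. On chromosome 11, LOC_Os11g17350, LOC_Os11g25130 and LOC_Os11g26340 had 23.0, 7.33 and 1.23 RPKM. LOC_Os11g28430, LOC_Os11g28480 and LOC_Os11g28600 had 1.01, 4.79 and 3.79 RPKM, and LOC_Os11g29130, LOC_Os11g29140 and LOC_Os11g29740 had 1.35, 1.43 and 5.37 RPKM. LOC_Os12g09230 on chromosome 12 had 17.1 RPKM and ChrSy.fgenesh.gene.25 had 18.1 RPKM.

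Some of the loci lay together. In 10 places, 22 loci had another of the set within 10 table rows in identifier order: 2 runs of 3 loci and 8 runs of 2. In 5 pairs, the loci were adjacent rows. The other 25 placed loci stood alone by this measure.

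On chromosome 5, LOC_Os05g48770, LOC_Os05g48790 and LOC_Os05g48830 lay within 7 rows. LOC_Os05g48770 had 3.14, 2.47 and 1.66 RPKM in NIL-qIGL1NIP and 0 reads in NIL-qigl1HD385. LOC_Os05g48790 had 4.30, 4.05 and 4.35 RPKM against 0.0270, 0.0460 and 0.0988 RPKM, and LOC_Os05g48830 had 0.916, 0.895 and 1.37 RPKM against 0.0818, 0 and 0 RPKM. The 3 tested loci inside this run were expressed in both lines. LOC_Os05g48800, right after LOC_Os05g48790 among them, had means of 109 RPKM in NIL-qigl1HD385 against 63.4 RPKM in NIL-qIGL1NIP, and LOC_Os05g48820, just before LOC_Os05g48830, had 89.3 and 88.5 RPKM. Neither passed the test described below (adjusted p = 0.12 and 0.96, limma). The flanking loci LOC_Os05g48760 and LOC_Os05g48840 did not pass either (adjusted p = 0.27 and 0.77, limma), with means of 13.1 and 1.12 RPKM in NIL-qigl1HD385 against 20.1 and 0.905 RPKM in NIL-qIGL1NIP.

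On chromosome 11, LOC_Os11g28430, LOC_Os11g28480 and LOC_Os11g28600 lay within 12 rows, with 0 tested loci between them. All 3 had 0 reads in NIL-qigl1HD385. In NIL-qIGL1NIP replicates 1, 2 and 3, LOC_Os11g28430 had 1.45, 0.756 and 0.822 RPKM, LOC_Os11g28480 had 7.58, 3.05 and 3.75 RPKM, and LOC_Os11g28600 had 6.24, 2.93 and 2.2 RPKM. Replicate 1 was the highest library for each. The nearest tested locus before the run, LOC_Os11g28365, had means of 19.0 and 20.5 RPKM in NIL-qigl1HD385 and NIL-qIGL1NIP (adjusted p = 0.67, limma). The nearest after it, LOC_Os11g28670, had 0.519, 5.89 and 1.08 RPKM in NIL-qigl1HD385 against 0.387, 0.172 and 0 RPKM in NIL-qIGL1NIP (adjusted p = 0.27, limma).

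On chromosome 2, LOC_Os02g40240 and LOC_Os02g40340 lay within 10 rows. LOC_Os02g40240 had 2.08, 1.12 and 1.08 RPKM in NIL-qIGL1NIP and 0.0266, 0 and 0.0333 RPKM in NIL-qigl1HD385; the values of LOC_Os02g40340 are given above. Of the 2 tested loci between them, LOC_Os02g40260 was expressed in both lines, at 8.24 to 13 RPKM in NIL-qigl1HD385 and at 181, 52.8 and 20.5 RPKM in NIL-qIGL1NIP, and with that spread did not pass the test (adjusted p = 0.18, limma). LOC_Os02g40270 was close to the set, with 0.136, 0.0332 and 0.214 RPKM in NIL-qigl1HD385 against 2.73, 3.76 and 2.87 RPKM in NIL-qIGL1NIP. LOC_Os02g40110, before the run, had 3.0 and 2.85 RPKM (adjusted p = 0.83, limma).

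**Figure D4:**
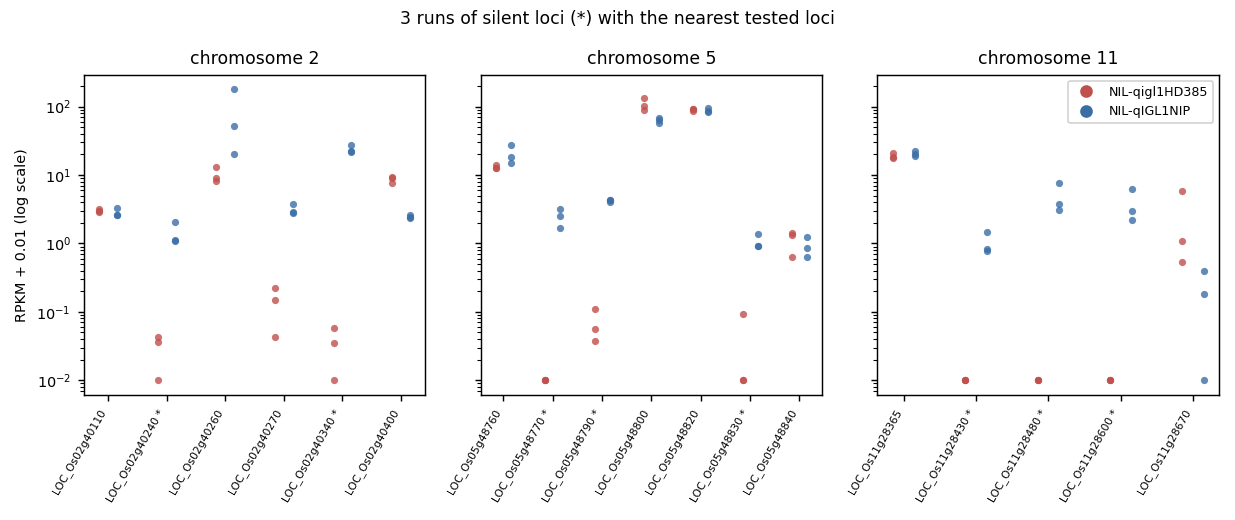
RPKM plus 0.01 (log scale) in each library for 3 runs of silent loci (asterisks) and the nearest tested loci around and between them; red is NIL-qigl1HD385 and blue NIL-qIGL1NIP. On chromosome 5, LOC_Os05g48800 and LOC_Os05g48820 lie among the silent loci with means of 63.4 to 109 RPKM in both lines.

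The remaining runs were pairs. LOC_Os07g26750 and LOC_Os07g26760, adjacent on chromosome 7, had 0 reads in NIL-qigl1HD385, as did LOC_Os11g29130 and LOC_Os11g29140 on chromosome 11. In the adjacent pair LOC_Os07g35979 and LOC_Os07g35985, NIL-qigl1HD385 had 16 reads and 1 read. LOC_Os07g38900 and LOC_Os07g38910 had 2 reads and 0 reads, and LOC_Os07g39390 and LOC_Os07g39460 had 12 and 7. On chromosome 8, LOC_Os08g24250 had 0 reads and LOC_Os08g24280 had 6, all in replicate 2.

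The neighbours outside the set were tested. The rule did not pick them, but any locus that met it was left out of them. Silent loci beside a member are therefore missing from the counts of lowered neighbours. A test across all loci was fitted with limma on log2(RPKM + 0.5), two-sided, for the 23181 loci with a mean of at least 0.5 RPKM, and those with an adjusted p (Benjamini-Hochberg) under 0.05 were called. In it, 0.733% of the tested loci were called, 0.358% lower and 0.375% higher in NIL-qigl1HD385. Of the 48 silent loci, 42 could be tested and 39 were called lower, which follows from their choice. The nearest tested locus outside the set was taken on either side of each placed member, which gave 76 loci at a median of 2 rows. Of these, 6 (7.89%) were called, 4 lower and 2 higher in NIL-qigl1HD385. The 6 called loci were neighbours of 6 members. For the other 41 members, neither of these neighbours outside the set was called.

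Most neighbours were expressed in NIL-qigl1HD385. Their median level there was 7.71 RPKM, and 70 of the 76 had a mean of at least 0.5 RPKM. The choice of neighbours favours this: they had to reach a mean of 0.5 RPKM over the 6 libraries, and members were left out. No like share over all tested loci is given. The 70 neighbours that were not called had log2 changes from -2.65 to 1.70 with a median of -0.02, and 65 of them were within 1 on the log2 scale. Leaving out the called loci favours small changes, and no share within 1 is given for all tested loci. With called loci included, the median was -0.04 for the 76 neighbours and 0.02 for all tested loci. In size, disregarding direction, the median log2 change was 0.36 for the 76 neighbours and 0.20 for all tested loci.

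The largest change among the neighbours was at LOC_Os07g01290, which precedes LOC_Os07g01300. It had 0.147, 0.059 and 0.181 RPKM in NIL-qigl1HD385 against 116, 106 and 150 RPKM in NIL-qIGL1NIP, a log2 change of -7.62 (SE 0.16, adjusted p = 5.94e-06, limma). Its mean of 0.129 RPKM lies just over the limit of the rule, so this pair of adjacent high loci was split by the limit. LOC_Os08g24290, after LOC_Os08g24280, had 0.192, 0.252 and 0.25 RPKM against 35.8, 34.7 and 28.1 RPKM (log2 change -5.51, SE 0.13, adjusted p = 9.83e-06, limma). These calls held in all 13 alternative fits in which each was tested.

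LOC_Os02g40270, described above, fell by 2.53 on the log2 scale (SE 0.19, adjusted p = 0.0026, limma). LOC_Os02g40400, which follows LOC_Os02g40340, went the other way: it had 9.36, 9.01 and 7.54 RPKM in NIL-qigl1HD385 against 2.42, 2.34 and 2.57 RPKM in NIL-qIGL1NIP (log2 change 1.63, SE 0.12, adjusted p = 0.0025, limma). The groups did not overlap in either locus. With the replicate number as a block, both lost their call (adjusted p = 0.083 and 0.079, limma).

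LOC_Os11g26350, after LOC_Os11g26340, and LOC_Os07g23380, before LOC_Os07g23485, were called with less margin. LOC_Os11g26350 had 2.11, 1.48 and 1.99 RPKM in NIL-qigl1HD385 against 17.2, 11.8 and 7.39 RPKM in NIL-qIGL1NIP (log2 change -2.35, SE 0.30, adjusted p = 0.028, limma). Its call was lost without NIL-qIGL1NIP replicate 1 (adjusted p = 0.051, limma) or 2 (0.12), and without NIL-qigl1HD385 replicate 1 (0.095), 2 (0.11) or 3 (0.12). LOC_Os07g23380 had 10.6, 14.2 and 8.87 RPKM against 3.93, 3.52 and 3.93 RPKM (log2 change 1.43, SE 0.18, adjusted p = 0.027, limma). Its call was lost without NIL-qIGL1NIP replicate 1 (adjusted p = 0.10, limma), 2 (0.12) or 3 (0.11) and without NIL-qigl1HD385 replicate 1 (0.11).

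Farther out, calls were fewer. Within 5 tested loci of any member, 8 of 354 loci (2.26%) were called, 4 lower and 4 higher. These include the 6 nearest calls, so 2 further calls were found beyond the nearest locus on each side. Over all tested loci 0.733% were called, and the share among the farther loci lay near that. The 2 further calls were LOC_Os02g42406, with means of 13.8 RPKM in NIL-qigl1HD385 against 6.70 RPKM in NIL-qIGL1NIP, and LOC_Os08g24330, with 5.72 and 1.55 RPKM. Among the 76 loci in place 5 before or after a member, 0 were called by limma. The count of 8 fell to 4 without NIL-qIGL1NIP replicate 1 or NIL-qigl1HD385 replicate 1, and to 5 without NIL-qIGL1NIP replicate 2 or NIL-qigl1HD385 replicate 3.

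**Figure D5:**
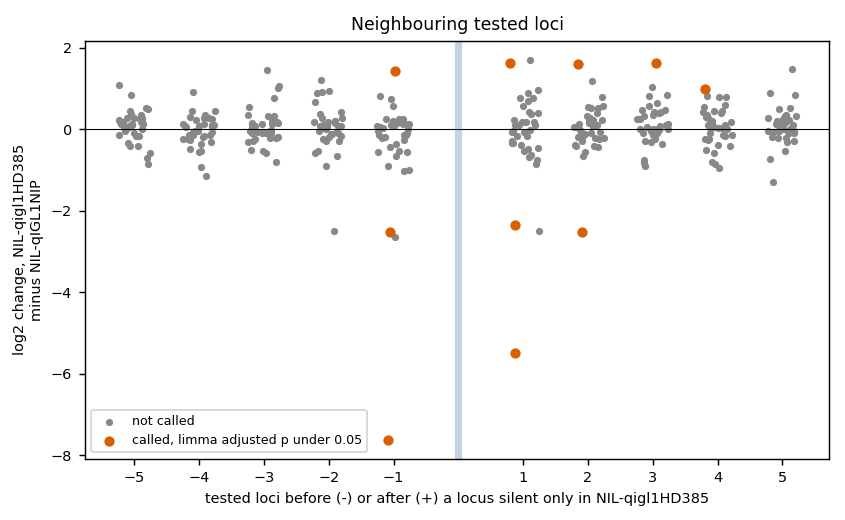
Log2 change (NIL-qigl1HD385 minus NIL-qIGL1NIP, on log2(RPKM + 0.5)) of the tested loci 1 to 5 places before and after each silent locus; orange points are called in limma. A locus near several members is drawn at each of its places; most points lie near 0, and LOC_Os07g01290 is lowest at -7.62.

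The direct table neighbours reached the level of the test less often than all rows, but were also less often at 0. Of the 83 rows outside the set that adjoin a member, 32 (38.6%) reached a mean of 0.5 RPKM over the 6 libraries, where 49.6% of all rows did. Of these 83, 5 (6.02%) were at 0 in all 6 libraries, against 12.2% of all rows.

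Levels within NIL-qIGL1NIP were uneven in part of the set. The coefficient of variation over the 3 libraries had a median of 26.3% in the 48 loci, from 3.68% (LOC_Os05g48790) to 129% (LOC_Os10g42066). The 20858 loci with at least 0.5 RPKM in each NIL-qIGL1NIP library and means in the same range had a median of 14.3%. It was over 50% in 8 of the 48 (16.7%) and in 4.13% of those loci. Low levels and short recovered models, both common in the set, leave fewer reads per library, and their part in this was not tested.

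The most uneven locus was LOC_Os10g42066, with 6.24, 0.510 and 0.784 RPKM in NIL-qIGL1NIP replicates 1, 2 and 3, from 163, 12 and 17 reads. In NIL-qigl1HD385 it had 0.128, 0.0831 and 0.0446 RPKM. Its neighbour LOC_Os10g42060 had the same order, with 17.3, 0.498 and 2.61 RPKM in NIL-qIGL1NIP and 0.143, 0 and 0.187 RPKM in NIL-qigl1HD385. The level of this pair in NIL-qIGL1NIP thus came mainly from 1 library. LOC_Os10g42066 was one of the 3 tested members that were not called (adjusted p = 0.26, limma), beside LOC_Os07g23485 (0.065) and LOC_Os11g29130 (0.072).

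NIL-qIGL1NIP replicate 1 was the highest of its line in 24 of the 48 loci (50%), replicate 2 in 10 and replicate 3 in 14. Among the 20858 loci just named, replicate 1 was highest in 36.5%. On chromosome 11, replicate 1 was highest in 8 of the 9 loci, the exception being LOC_Os11g29740, against 39.5% of the 1160 such loci of chromosome 11. Other chromosomes went another way: all loci of the set on chromosomes 8 and 9 were highest in replicate 2, and those on chromosome 4 in replicate 3. The loci of a chromosome share their libraries, so the 9 are not independent observations.

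The limits of the rule cut through a continuous range. Just inside the limit of 0.1 RPKM were LOC_Os02g27940, with 0, 0.279 and 0 RPKM in NIL-qigl1HD385, LOC_Os07g27359, with 0.0771, 0.122 and 0.0705 RPKM, and LOC_Os10g42066. For LOC_Os02g27940 all 7 reads came from replicate 2, and for LOC_Os07g27359 reads were found in each library, 28 against 214 in NIL-qIGL1NIP. In NIL-qIGL1NIP these loci had 1.03, 0.733 and 0.797 RPKM and 0.838, 0.652 and 0.510 RPKM. Their depth-scaled ratios were 8.96 (interval 4.1 to 23.2) and 7.49 (interval 5.03 to 11.5), the smallest of the set.

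Just outside that limit were LOC_Os07g23210, with means of 0.107 RPKM in NIL-qigl1HD385 against 1.26 RPKM in NIL-qIGL1NIP, and LOC_Os07g34964, with 0.118 and 4.40 RPKM. Just under the other limit were LOC_Os01g40410, with 0.496, 0.520 and 0.498 RPKM in NIL-qIGL1NIP and a mean of 0.036 RPKM in NIL-qigl1HD385, and LOC_Os11g28900, with 0.845, 0.486 and 0.528 RPKM and 0 reads. The latter lies between the chromosome 11 runs named above.

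The same rule with the lines exchanged gave 45 loci, of which 27 lay on chromosome 11 and 4 on chromosome 7. Their median level in NIL-qigl1HD385 was 2.06 RPKM, beside 2.59 RPKM in NIL-qIGL1NIP for the 48 loci. Their largest run held 10 loci, against 3 among the 48. In the lower line, 25 of the 45 (55.6%) had 0 reads, against 19 of the 48 (39.6%). The sets were chosen by mirrored limits on the same 6 libraries, so these counts are descriptions.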

How the data were processed

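The deposited values are RPKM, computed by the authors, 1 per locus and library; no log or count table was used. Per the submitters' processing notes, Trimmomatic 0.36, featureCounts, Subread 1.5.1 and edgeR 3.12.1 were used, without their roles. The sources used here give no aligner, genome build or strand setting, so reads of overlapping, antisense or near-identical loci may be split or lost. RPKM of low loci step by the worth of 1 read. Totals and reads were recovered from these steps (Python 3.11.15; lengths of 60 to 17000 bases, the smallest that gives whole reads within 0.0001 plus 2e-08 of the reads). All 6 totals lay at most 0.00042 from a whole number, 100% of loci with a value gave whole reads, and the rows held 97.9 to 98.2% of the totals. Intervals and the limit of 3 reads cover counting error only and take each read as independent. Whether a read pair counts as 1 or 2 reads is not stated. If it counts as 2, the intervals are too narrow and the limit of 3 reads is too low.

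The test was limma 3.58.1 (R 4.3.3, lmFit and eBayes with trend, no covariate) on log2(RPKM + 0.5). On simulated data for this comparison (23152 loci, 200 changed), changes of 2-fold were recovered in 91.8% and of 4-fold in 100% of cases, and it called 19 unchanged loci. The simulation gave all loci the same spread between libraries beyond counting error, the median of loci with many reads. It therefore does not describe recovery at uneven loci such as LOC_Os02g40260. Recovery of reads was exact for 99.1% of loci with many reads. Members, lists and limits were chosen with earlier results of these data known. All members are named; values per library are given for the 8 highest in NIL-qIGL1NIP, the 3 highest in NIL-qigl1HD385, the 3 largest runs (ties in genome order) and loci next to the limits; called neighbours and flanks of those runs are named. LOC_Os12g09230, LOC_Os03g32330, the chromosome 4 pair, LOC_Os10g42060 and the farther calls were named after their values were seen. Alternatives covered pseudocount, filter, scaling, replicate block, voom, limits of the rule and leaving out each library.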

Additional observations from a re-analysis of the deposited data

How the results depend on the processing

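The 48 members, the 22 in runs and the 45 of the exchanged rule stayed within 1.5 times their value under most settings; with 0.25 RPKM in place of 0.5 there were 87 members. Leaving out each library in turn gave 48 to 70 members, 22 to 26 in runs and 45 to 50 of the exchanged rule. The 70 came without NIL-qIGL1NIP replicate 3. Leaving out a NIL-qIGL1NIP library can only add members, so all 48 stay by construction. Without NIL-qigl1HD385 replicate 1, 2 or 3, 47, 45 and 44 of the 48 stayed. The 170 called loci became 94 at a mean of at least 2 RPKM, which tests fewer loci, and 82 to 111 with 1 library left out. The 6 called neighbours were 3 of 83 with no filter, 4 to 5 with 1 library left out, 4 to 6 in the other fits without a block, and 7 of 148 with the nearest 2 loci on each side. The 8 calls within 5 tested loci were 4 to 7 with 1 library left out and 6 or 8 otherwise. With the replicate block, 46 loci, 2 neighbours and 2 loci within 5 were called. Nothing in the labels pairs the libraries, and same-numbered deviations correlated at -0.28, -0.25 and -0.41. No direction of a named neighbour was reversed; LOC_Os11g26350 and LOC_Os07g23380 lost their call in 8 of 13 fits each. The cause of these shifts was not tested, and some of these settings also have fewer loci or libraries. For loci with 0 reads, depth sets the bound. In alternatives chosen after seeing the data, the NIL-qIGL1NIP mean of LOC_Os10g42066 was 0.647 RPKM without replicate 1 of that line, against 2.51 RPKM, and that of LOC_Os12g09230 was 11.3 RPKM without replicate 3, against 17.1 RPKM.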
